A study of Rattus norvegicus with 11 samples.

Results

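The genes described here were 10 chemokine ligand genes of the rat bladder, Cxcl1, Cxcl2, Cxcl3, Cxcl6, Cxcl10, Cxcl12, Cxcl14, Ccl2, Ccl17 and Ccl20, and they were found by symbol among the 18507 genes of the deposited expression table. They were chosen with their values in these samples in view, so their levels and differences are given as a description, without a test. RNA sequencing (RNA-seq) was performed on whole bladder tissue of female Sprague-Dawley rats, about 6 months old according to the methods, with and without partial bladder outlet obstruction (PBOO). In PBOO rats a suture tie was placed around the bladder neck and the urethra, whereas the controls, called normal in the labels, had an abdominal incision that was closed again. The groups comprised 3 PBOO and 3 normal samples at week 4 after surgery, and 2 PBOO and 3 normal samples at week 5. The columns of all week 4 samples carried the word Input in their names, and those of the week 5 normal samples were named as adult samples. The samples are assumed to be separate rats, since nothing in the labels says otherwise. With so few samples, and if any of them shared a rat, the spread between samples could be partly technical.

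Chemokines are small secreted proteins that guide leukocytes along gradients through receptors coupled to G proteins. Cxcl1, Cxcl2, Cxcl3 and Cxcl6 attract neutrophils through Cxcr2, and in many tissues they are induced by interleukin-1, tumor necrosis factor and microbial products through the transcription factor NF-kB. Cxcl10 is an interferon-induced ligand of Cxcr3 on activated T cells, Ccl17 binds Ccr4 on T helper cells, and Ccl20 binds Ccr6 on lymphocytes and dendritic cells. Ccl2 attracts monocytes through Ccr2. Cxcl12 is made steadily by stromal cells and binds Cxcr4 and Ackr3, while Cxcl14 is made at rest by epithelial and stromal cells of many tissues. The 10 genes were therefore arranged as 4 neutrophil-attracting, 3 lymphocyte-attracting and 2 stromal genes, with Ccl2 as 1 monocyte-attracting gene, and these class names are working names, not cell types measured here.

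Of the 8 promoter windows found, 5 held a stretch that matched the NF-kB consensus, and the upstream sequences of these 5 genes are shown. The windows were taken from RefSeq (GRCr8) and ran from 250 bases before to 50 bases after each annotated start, and Cxcl3 and Ccl2 had no entry. The consensus, searched on both strands with overlapping matches joined, was present in 7.51% of all 33469 promoter windows of the same length. Below, the 200 bases that end just before the annotated start are given 5′ to 3′ on the strand of the gene, with the matching letters in capitals.
Cxcl1 (chr14:17479322-17479521, minus strand): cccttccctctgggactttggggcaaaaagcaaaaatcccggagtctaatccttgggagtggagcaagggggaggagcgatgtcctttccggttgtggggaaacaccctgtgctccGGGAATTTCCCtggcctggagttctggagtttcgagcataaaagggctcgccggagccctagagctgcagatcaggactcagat
Cxcl2 (chr14:17467256-17467455, minus strand): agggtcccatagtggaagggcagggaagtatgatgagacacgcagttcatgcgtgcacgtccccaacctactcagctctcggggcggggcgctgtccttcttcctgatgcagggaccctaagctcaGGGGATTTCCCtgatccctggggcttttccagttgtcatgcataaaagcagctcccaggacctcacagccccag
Cxcl6 (chr14:17596418-17596617, minus strand): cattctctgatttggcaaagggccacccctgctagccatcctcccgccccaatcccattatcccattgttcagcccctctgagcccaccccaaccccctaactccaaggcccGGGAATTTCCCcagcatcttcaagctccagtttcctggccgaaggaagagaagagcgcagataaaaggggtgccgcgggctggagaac
Cxcl10 (chr14:15988866-15989065, plus strand): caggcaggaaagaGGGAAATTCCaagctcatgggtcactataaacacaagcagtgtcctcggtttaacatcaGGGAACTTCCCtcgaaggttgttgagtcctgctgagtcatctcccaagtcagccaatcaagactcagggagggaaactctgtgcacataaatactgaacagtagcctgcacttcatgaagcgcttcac
Ccl20 (chr9:91836959-91837158, plus strand): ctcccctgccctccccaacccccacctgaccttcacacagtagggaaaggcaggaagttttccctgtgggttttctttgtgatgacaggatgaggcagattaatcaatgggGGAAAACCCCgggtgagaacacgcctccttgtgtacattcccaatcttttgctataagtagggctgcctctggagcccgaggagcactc

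Cxcl1 and Cxcl6 held the same 11 letters, GGGAATTTCCC, at -84 to -74 and at -88 to -78 from the start, and Cxcl2 held GGGGATTTCCC at -74 to -64. The 10-letter run GGGAATTTCC occurred in the windows of Cxcl1 and Cxcl6, and in 0.0747% of all windows. Cxcl10 held a stretch at -187 to -178 and another at -128 to -118, while the match of Ccl20 at -89 to -80 lay on the opposite strand. The stromal genes Cxcl12 and Cxcl14 and the lymphocyte-attracting gene Ccl17 held no match in this window, which says nothing about sites elsewhere. The AP-1 motif TGANTCA was present in the windows of Cxcl10, at -96 to -90, and Cxcl14, at -99 to -93, and in 7.33% of all windows. These matches describe letters only, and the search was made with the expression values known. On rat chromosome 14, Cxcl2, Cxcl1, Cxcl3 and Cxcl6 lie in one cluster together with Pf4 and Ppbp, and Cxcl10 lies between Cxcl11 and Cxcl9. Reads of the closely related genes Cxcl1, Cxcl2 and Cxcl3 could have been shared between them in counting, so their individual levels are less certain than their sum.

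Expression was given in FPKM, a count of fragments scaled by exon length and by the total mapped, with no read counts, so the depth of each sample is unknown and a value of 0 is reported only as listed. The FPKM values summed to between 424961 and 564343 per sample. Spearman correlations across genes were 0.968 to 0.991 between samples of week 4, 0.893 to 0.988 between samples of week 5, and 0.665 to 0.751 between weeks. In addition, 4871 genes were listed at 0 in every week 4 sample and 403 in every week 5 sample, so levels were compared within a week only. Normal week 4 replicate 1 stood apart, since 48 leukocyte markers summed to 158 FPKM in it and to 1040 and 1117 FPKM in the other normal samples of that week, and 6 fibroblast markers to 999 FPKM against 3783 and 3808 FPKM. The differences below are on the log2(FPKM + 0.1) scale, PBOO minus normal, and the SE comes from a limma fit over every gene whose mean in the week was 0.5 FPKM or more. All 10 genes passed this filter at week 5, whereas Cxcl2, Cxcl3 and Ccl20 did not at week 4.

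At week 5, the 4 neutrophil-attracting genes were far higher in PBOO bladders than in normal bladders. Cxcl6, which RefSeq also lists under the name Cxcl5, was 0.0346, 0.169 and 0.0192 FPKM in the normal samples, and 19.0 and 29.4 FPKM in the PBOO samples. Cxcl1 was 0.257, 0.115 and 0.300 FPKM in normal bladders, and 7.10 and 14.9 FPKM in PBOO bladders. Both genes went from close to the bottom of the scale to levels that separated every PBOO sample from every normal sample. The log2 difference was 7.19 (SE 0.46) for Cxcl6, and no ratio is given because its normal mean was only 0.0742 FPKM. For Cxcl1 the log2 difference was 5.05 (SE 0.46), and the ratio of the means was 49.1. Cxcl3 was 0.0941, 0 and 0.0999 FPKM in normal bladders, against 7.01 and 18.3 FPKM in PBOO bladders. Cxcl2, the lowest of the 4 in PBOO, was listed at 0 in 2 normal samples and at 0.0432 FPKM in the third, against 1.56 and 4.93 FPKM. Their log2 differences were 6.18 (SE 0.57) and 4.68 (SE 0.66), and no ratio is given because some normal samples were listed at 0. With normal levels this low, the constant of 0.1 sets much of the size of these differences, which with a constant of 1 were 4.52 for Cxcl6, 3.55 for Cxcl3, 3.22 for Cxcl1 and 1.94 for Cxcl2. In each of the 4 genes PBOO replicate 2 was the higher sample, by 1.55 times for Cxcl6, 2.10 times for Cxcl1, 2.61 times for Cxcl3 and 3.17 times for Cxcl2.

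**Figure D1:**
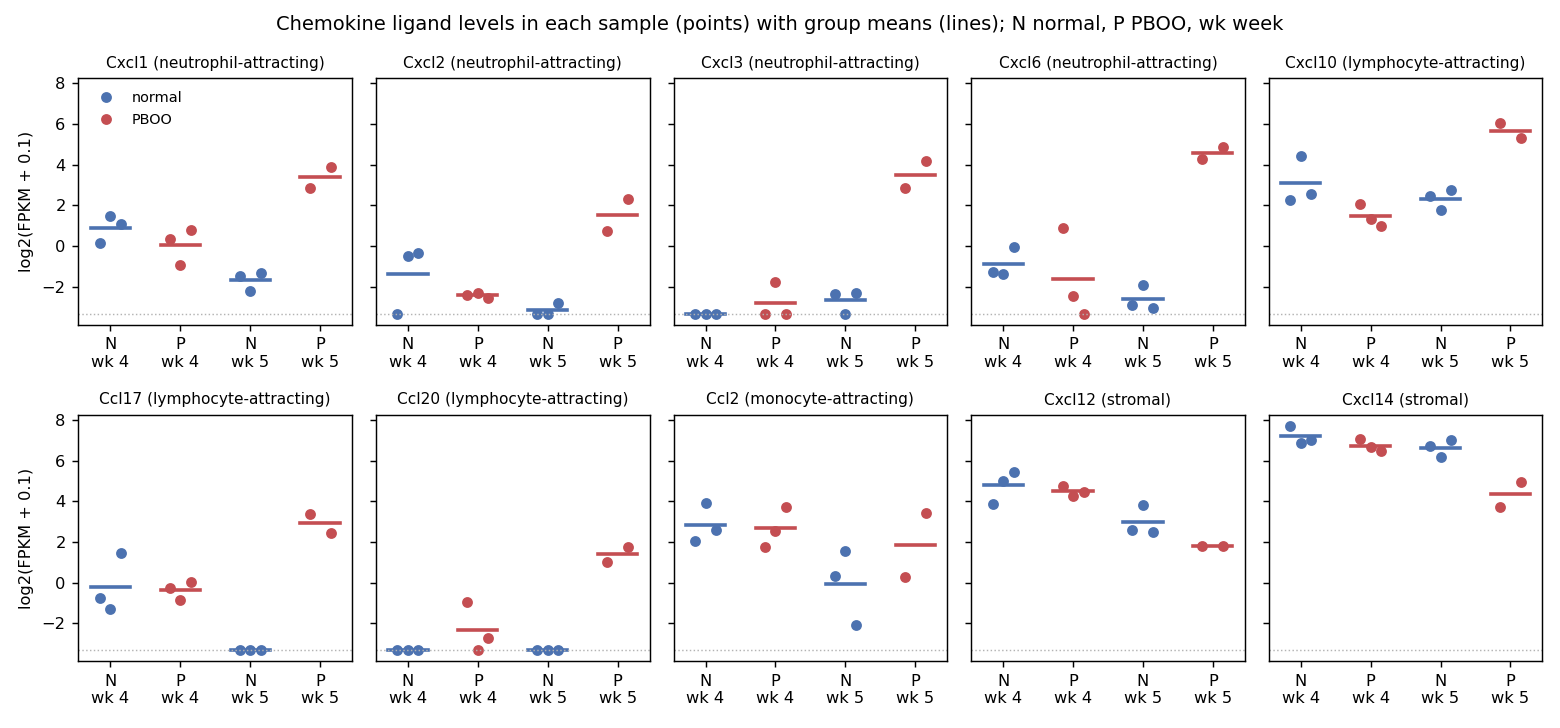
Levels of the 10 chemokine ligand genes in each sample. The vertical axis is log2(FPKM + 0.1), each point is 1 sample, lines are group means of these values, N is normal and P is PBOO at the given week, and the dotted line is a listed 0. At week 5, both PBOO points lie above all normal points for 7 genes and below them for Cxcl12 and Cxcl14, and only Ccl2 overlaps.

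The lymphocyte-attracting genes were also higher in both PBOO samples at week 5. Cxcl10 was 5.33, 3.28 and 6.54 FPKM in normal bladders, and 65.7 and 39.2 FPKM in PBOO bladders. The log2 difference of Cxcl10 was 3.36 (SE 0.36), and the ratio of the means was 10.4. With the constant of 0.1, Cxcl10 had the smallest difference of the 7 genes that were higher, and it was the one with a clear level in normal bladders. This order depends on the constant and is not a ranking of fold changes. Ccl17 was listed at 0 in all 3 normal samples, and was 10.3 and 5.40 FPKM in the PBOO samples. Ccl20 was likewise listed at 0 in all normal samples, against 1.94 and 3.30 FPKM in PBOO. For Ccl17 and Ccl20, the log2 differences of 6.24 (SE 0.46) and 4.72 (SE 0.54) are set by the constant of 0.1 and are no fold changes. Unlike the neutrophil-attracting genes, Cxcl10 and Ccl17 were higher in PBOO replicate 1, by 1.68 and 1.91 times, whereas Ccl20 was higher in replicate 2, by 1.70 times.

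Both stromal genes were lower in PBOO bladders at week 5. Cxcl14, by far the highest of the 10 genes in normal bladders, was 105, 71.8 and 131 FPKM there, and 13.3 and 31.0 FPKM in PBOO. Its log2 difference was -2.29 (SE 0.42), and the normal mean was 4.63 times the PBOO mean. Cxcl12 was 5.97, 14.2 and 5.57 FPKM in normal bladders, against 3.37 FPKM in both PBOO samples. The log2 difference of Cxcl12 was -1.19 (SE 0.43), so its difference was the smaller of the pair, and the normal mean was 2.55 times the PBOO mean.

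Ccl2, the monocyte-attracting gene, did not separate the groups at week 5. It was 1.15, 2.88 and 0.137 FPKM in normal bladders, and 1.11 and 10.5 FPKM in PBOO bladders. PBOO replicate 1 therefore lay inside the normal range, and PBOO replicate 2 was 9.47 times higher than replicate 1. The log2 difference was 1.90 with an SE of 1.34, and it was 0.33 with PBOO replicate 1 alone and 3.46 with replicate 2 alone. Of the 10 genes, 7 had both PBOO samples above all normal samples at week 5, 2 had both below, and 1 overlapped. Over all 13685 genes tested at week 5, 35.3% were above in this sense and 25.0% were below, and nothing is read from the members' count because the genes were chosen on this contrast. The median log2 difference was 5.62 for the neutrophil-attracting, 4.72 for the lymphocyte-attracting and -1.74 for the stromal genes, beside 0.12 over all genes tested.

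**Figure D2:**
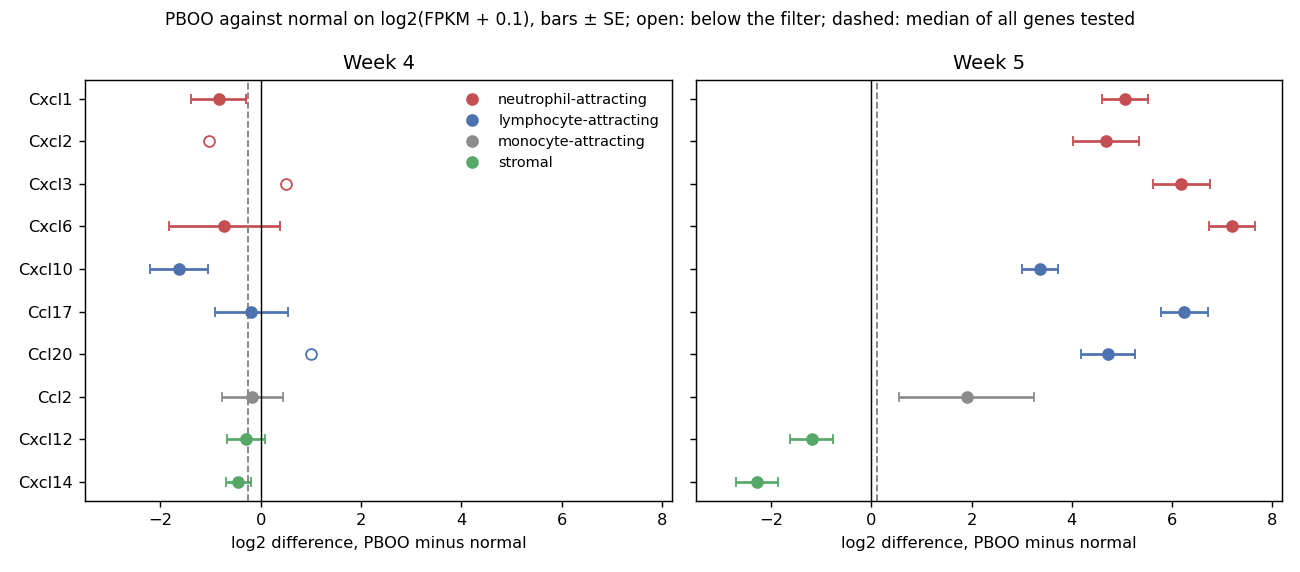
Log2 difference between PBOO and normal bladders for each gene at week 4 and at week 5, on log2(FPKM + 0.1). Bars are ± SE from limma, open circles are genes below the expression filter (no SE), colors are the classes and the dashed line is the median over all genes tested. At week 4 the values lie between -1.63 (Cxcl10) and 0.99 (Ccl20), and at week 5 between -2.29 (Cxcl14) and 7.19 (Cxcl6).

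At week 4 the picture was different, and 9 of the 10 genes overlapped between PBOO and normal bladders. Cxcl10 was the exception. It was 4.77, 21.2 and 5.83 FPKM in normal bladders, and 4.06, 2.41 and 1.88 FPKM in PBOO bladders, so every PBOO sample was below every normal sample. Its log2 difference was -1.63 (SE 0.58). All PBOO samples were below all normal samples for 34.9% of the 11320 genes tested at week 4, and above them for 6.63%. The median log2 difference over all these genes was -0.25 at week 4, which moved to -0.01 under median-ratio scaling. The difference of Cxcl10 was -1.39 under that scaling, -2.04 without normal replicate 1 and -0.97 without normal replicate 2, the sample with the highest Cxcl10 level.

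The neutrophil-attracting genes were low and scattered at week 4. Cxcl1 was 1.002, 2.66 and 2.01 FPKM in normal bladders, and 1.16, 0.417 and 1.60 FPKM in PBOO bladders, with a log2 difference of -0.84 (SE 0.54). Cxcl6 was 0.315, 0.279 and 0.860 FPKM in normal samples, and 1.74, 0.0820 and 0 FPKM in PBOO samples, so PBOO held both the highest and the lowest value. Its log2 difference was -0.72 (SE 1.10). Cxcl2 was 0, 0.607 and 0.692 FPKM in normal bladders, and 0.0862, 0.104 and 0.0725 FPKM in PBOO bladders. Cxcl3 was listed at 0 in 5 of the 6 samples and at 0.189 FPKM in PBOO replicate 2. Without normal replicate 1, the library with few leukocyte transcripts, all PBOO samples were below the remaining normal samples for Cxcl1, Cxcl2 and Cxcl12 as well as for Cxcl10.

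The other lymphocyte-attracting genes and the stromal genes overlapped at week 4. Ccl17 was 0.484, 0.310 and 2.70 FPKM in normal bladders, and 0.720, 0.450 and 0.910 FPKM in PBOO bladders. Ccl20 was listed at 0 in all normal samples, and was 0.418, 0 and 0.0525 FPKM in PBOO. Neither gene separated the groups, and the highest Ccl17 value of the week was in a normal sample. Cxcl12 was 14.7, 32.2 and 43.6 FPKM in normal bladders, and 26.8, 18.9 and 22.1 FPKM in PBOO bladders, with a log2 difference of -0.30 (SE 0.38). The lowest of these values was in normal replicate 1, the library with few leukocyte and fibroblast transcripts, and without it the difference was -0.74. Cxcl14 was 207, 116 and 130 FPKM, against 134, 104 and 87.9 FPKM, with a log2 difference of -0.45 (SE 0.25). Unlike Cxcl12, Cxcl14 had its highest value in normal replicate 1, and without that sample its difference was -0.20. With all samples, the differences of Cxcl12 and Cxcl14 were near the median of all genes at that week. Ccl2 was 4.03, 15.2 and 5.87 FPKM in normal bladders and 3.33, 5.77 and 13.1 FPKM in PBOO bladders, a log2 difference of -0.17 (SE 0.61) that was 0.08 under median-ratio scaling. The median log2 difference at week 4 was -0.78 for the neutrophil-attracting, -0.19 for the lymphocyte-attracting (0.03 under median-ratio scaling) and -0.37 for the stromal genes.

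The order of the genes by level changed between the groups. Cxcl14 ranked first in normal bladders of both weeks and in week 4 PBOO bladders, and its range did not overlap that of the second gene, Cxcl12. In normal bladders Cxcl12 overlapped with Cxcl10, the third gene, in both weeks. In week 4 PBOO bladders the order was Cxcl14, Cxcl12, Ccl2 and Cxcl10, and Ccl2 and Cxcl10 overlapped. In week 5 PBOO bladders Cxcl10 ranked first, at 39.2 to 65.7 FPKM, and did not overlap the second gene, Cxcl6. Cxcl6 and Cxcl14 overlapped there, as did each later pair of neighbours down to Cxcl2 and Ccl20.

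As a share of the summed FPKM of the 10 genes, the stromal genes made up 93.0% to 95.0% in week 5 normal bladders, and 12.8% and 21.4% in the PBOO samples. The neutrophil-attracting genes made up 0.307% to 0.327% in these normal bladders, against 26.6% in PBOO replicate 1 and 42.1% in replicate 2. The lymphocyte-attracting genes led in PBOO replicate 1, with 59.8%, and made up 29.9% in replicate 2. Per sample, the neutrophil-attracting sum was 2.08 and 1.97 times the stromal sum in PBOO, whereas in the normal samples this ratio was 0.00330 to 0.00347. The PBOO samples thus differed in the balance between neutrophil-attracting and lymphocyte-attracting genes, while the ratio of neutrophil-attracting to stromal genes was nearly the same in both. At week 4 the stromal share was 78.7% to 95.4% in normal and 86.2% to 93.3% in PBOO bladders. The summed level of all 10 genes was 92.4 to 144 FPKM in normal and 130 and 160 FPKM in PBOO samples at week 5, and these ranges overlapped.

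**Figure D3:**
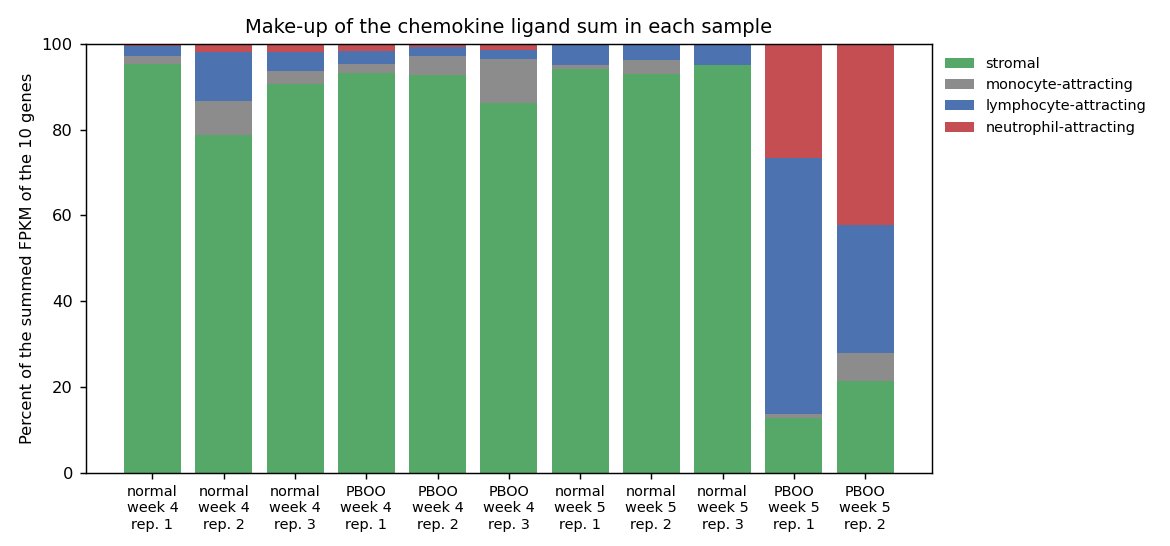
Percent of the summed FPKM of the 10 genes taken by each class, 1 bar per sample. The stromal genes take at least 78.7% in every sample of week 4 and every normal sample of week 5, and 12.8% and 21.4% in the week 5 PBOO samples.

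The receptors of these ligands were examined next, with the limma test. They were not among the chosen genes, but this and the later lists were drawn up with earlier results of these data known. Their p-values and counts are therefore read as a description. The filter takes the mean over both groups, so a gene low in normal bladders could pass only through its PBOO samples. A gene is called where the unadjusted p was under 0.05 with at least a 2-fold change, and Benjamini-Hochberg adjusted p-values are over all genes tested. After adjustment with a 2-fold change, 0.265% of all genes rose and 0.106% fell at week 4. At week 5, 22.4% of all genes were called, 9.82% up and 12.6% down, and at week 4 4.9% were called, 2.46% up and 2.45% down. Cxcr2, the receptor of the neutrophil-attracting ligands, was 0.0816, 0 and 0 FPKM in normal bladders of week 5, against 1.08 and 3.86 FPKM in PBOO. Cxcr2 rose by 4.15 on the log2 scale (SE 0.73, limma adjusted p = 0.0113). Cxcr1, the other neutrophil chemokine receptor, was listed at 0 in 10 of 11 samples and at 0.0465 FPKM in week 5 PBOO replicate 2. Cxcr4, the receptor of Cxcl12, was 3.33, 5.01 and 2.85 FPKM in normal bladders and 11.5 and 30.3 FPKM in PBOO, and rose by 2.33 (SE 0.46, limma adjusted p = 0.0156) while its ligand was lower. Ackr3, which scavenges Cxcl12, was 49.1, 30.4 and 33.8 FPKM in normal bladders and 24.6 and 23.6 FPKM in PBOO, a log2 difference of -0.61 (SE 0.22) that did not reach 2-fold (limma adjusted p = 0.0897).

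The receptors of the lymphocyte-attracting ligands gave a mixed picture at week 5. Cxcr3, the receptor of Cxcl10, was 0.925, 2.39 and 0.902 FPKM in normal bladders and 1.26 and 8.09 FPKM in PBOO, so the groups overlapped and the log2 difference of 1.29 (SE 0.84) did not pass (limma adjusted p = 0.29). Ccr4, the receptor of Ccl17, was 0.00296, 0.0297 and 0.0546 FPKM against 0.438 and 1.20 FPKM. Ccr6, the receptor of Ccl20, was 0.153, 0.200 and 0.0875 FPKM against 0.448 and 1.59 FPKM. Without PBOO replicate 1, Cxcr3 was called by limma, at 2.58. Ccr4 and Ccr6 lay below the filter and were not tested, although for each both PBOO samples were above all normal samples. Ccr2, the receptor of Ccl2, is not analysed here. At week 4, none of Cxcr2, Cxcr3, Cxcr4 and Ackr3 passed, with log2 differences of -0.70 (SE 0.65), -0.96 (SE 0.48), 0.30 (SE 0.31) and 0.35 (SE 0.33) and limma adjusted p = 0.452, 0.208, 0.491 and 0.461. Without normal replicate 1, Cxcr2 was called down at week 4, at -1.37, and without PBOO replicate 1 Cxcr3 was, at -1.28.

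Of 22 chemokine receptor genes in the table, 15 were tested at week 5, of which 7 rose and 1 fell, and after adjustment 5 rose and none fell, beside 7.91% up and 11.4% down over all genes. The median log2 difference of the tested receptors was 1.29, beside 0.12 over all genes. Of the receptors called at week 5, Cxcr2, Cxcr6 and Ccr7 passed the filter only through PBOO, and Ackr2 only through the normal samples. Besides Cxcr2 and Cxcr4, Cxcr6, which binds Cxcl16 on the surface of cells, rose by 3.26 (SE 0.62, limma adjusted p = 0.0144). Ccr7, which guides dendritic cells and T cells to lymph vessels, rose by 2.83 (SE 0.75, limma adjusted p = 0.0389). Cx3cr1, the receptor of Cx3cl1 on monocytes, rose by 1.51 (SE 0.53) with a limma adjusted p = 0.0818, and it was not called when any one of the 3 normal replicates or PBOO replicate 2 was left out (0.61 to 1.57). At week 4, 12 receptors were tested, of which Ackr2, a scavenger of inflammatory CC chemokines, rose by 1.26 (SE 0.50, limma adjusted p = 0.14). Ccrl2, a receptor-like protein that binds chemerin, fell by 1.06 (SE 0.31, limma adjusted p = 0.0878). Neither passed after adjustment, and Ackr2 lost its call without normal replicate 1 (0.76), PBOO replicate 2 (0.86) or PBOO replicate 3 (1.40). Ccrl2 lost its call as well, at -0.85 without normal replicate 2, -0.94 without PBOO replicate 3, -0.82 under median-ratio scaling and -0.74 with a constant of 1. Of the receptors, 5 rather than 8 were called at week 5 without normal replicate 1, normal replicate 3 or PBOO replicate 2, and 1 rather than 2 at week 4 without normal replicate 2, PBOO replicate 2 or PBOO replicate 3.

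The other ligands of the family moved in both directions at week 5. Of 24 further ligand genes in the table, 20 were tested, of which 9 rose and 3 fell, and 7 and 3 held after adjustment. Their median log2 difference was 1.41, beside 0.12 over all genes. Over all genes, 9.82% were called up and 12.6% down, and 7.91% and 11.4% after adjustment. Cxcl11, Cxcl13, Ppbp, Ccl3, Ccl12 and Ccl22 passed the filter only through PBOO, and Ccl24 and Ccl27 only through the normal samples. Ccl22, which shares the receptor Ccr4 with Ccl17 and lies close to it in the genome, was 0.263, 0.269 and 0.0718 FPKM in normal bladders and 8.55 and 7.23 FPKM in PBOO. It rose by 4.81 (SE 0.44, limma adjusted p = 0.0015). Ppbp, a platelet-derived ligand of Cxcr2 from the same cluster as Cxcl1, was 0, 0.229 and 0 FPKM against 2.67 and 4.71 FPKM, and rose by 4.62 (SE 0.71, limma adjusted p = 0.00715). Pf4, its neighbour and a platelet and megakaryocyte product, was 9.08, 15.5 and 2.33 FPKM against 9.44 and 20.7 FPKM and did not pass (limma adjusted p = 0.394).

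The other interferon-induced ligands of Cxcr3 did not pass after adjustment. Cxcl11 rose by 3.06 (SE 0.97, limma adjusted p = 0.0641), from 0.0705, 0.469 and 0.361 FPKM to 1.01 and 7.79 FPKM. Cxcl9, the third such ligand and a neighbour of Cxcl10, was 0.867, 1.81 and 2.17 FPKM in normal bladders and 2.02 and 34.7 FPKM in PBOO, and did not pass (limma adjusted p = 0.17). Cxcl9 and Cxcl11 were thus higher in PBOO replicate 2, whereas Cxcl10 was higher in replicate 1. Without normal replicate 1, Cxcl11 was 2.53 and not called. Cxcl13, which attracts B cells, rose by 3.61 (SE 0.93, limma adjusted p = 0.0351), and was 2.79 and not called without PBOO replicate 2. Cx3cl1, a membrane-bound ligand for monocytes, was 14.4, 16.3 and 13.6 FPKM against 149 and 56.4 FPKM and rose by 2.63 (SE 0.40, limma adjusted p = 0.00703). The ligands that fell included the eosinophil attractants Ccl24, by 2.60 (SE 0.53, limma adjusted p = 0.0179), and Ccl11, by 2.53 (SE 0.46, limma adjusted p = 0.0125).

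At week 4, 16 of the other ligands were tested, none rose at an unadjusted p under 0.05 by limma and 2 fell, of which 1 reached a 2-fold change, Ccl11, by 2.49 (SE 0.99, limma adjusted p = 0.14). The other was Cxcl16, at -0.46 (SE 0.12, limma adjusted p = 0.0733). At week 4 the normal samples of Ccl11, at 12.5, 73.5 and 107 FPKM, overlapped PBOO samples of 23.2, 8.67 and 2.68 FPKM. The number called was 0 without normal replicate 2, normal replicate 3 or PBOO replicate 2, 4 without normal replicate 1 and 3 without PBOO replicate 1. The median over the tested ligands was -0.29, close to that of all genes. Whether the PBOO difference itself changed between weeks was tested with the interaction term over all samples. Each week had its own set of columns, so a change between weeks cannot be told apart from a difference in how these sets were made. Of the ligands 7 of 19 tested, and of the receptors 7 of 14 tested, differed between weeks at an adjusted p under 0.05 by limma, beside 40.0% of all 11296 genes. These 14 genes were 9 without normal week 4 replicate 2 and 6 without PBOO week 5 replicate 2.

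**Figure D4:**
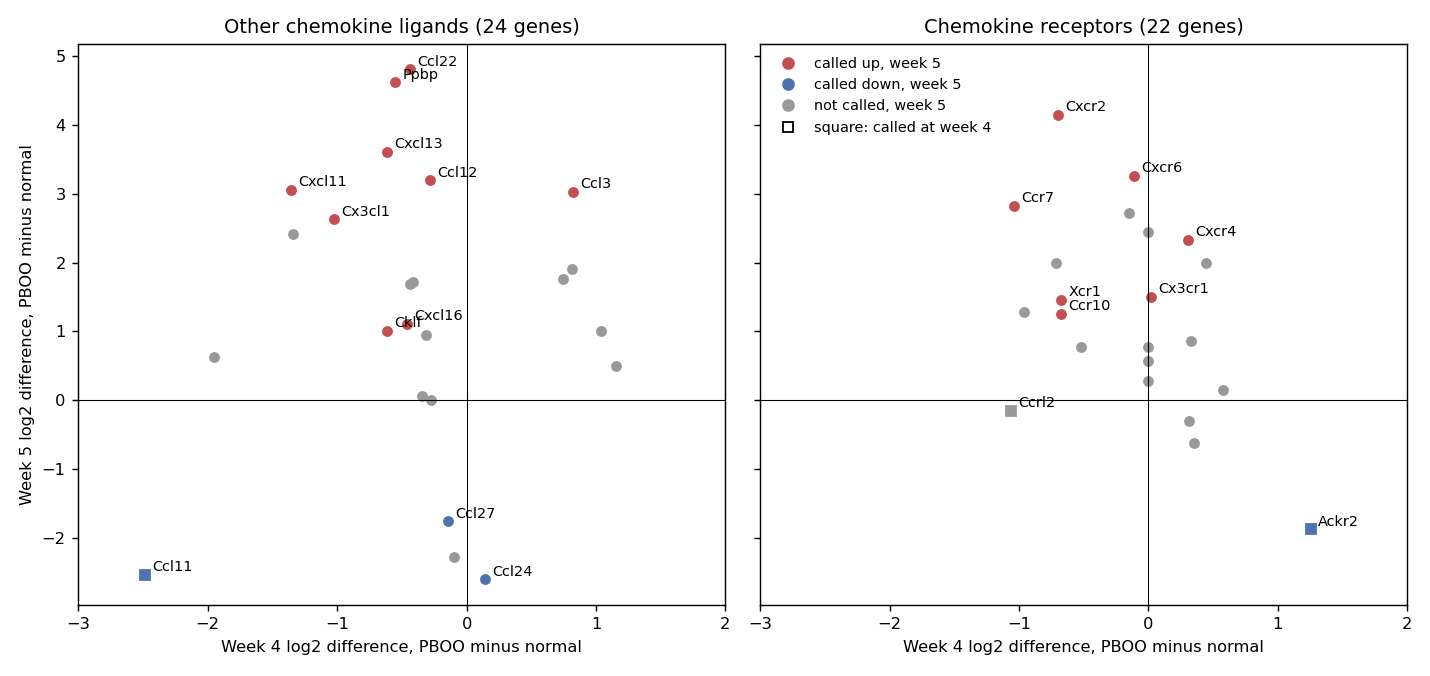
Log2 difference between PBOO and normal bladders at week 4 (horizontal axis) and week 5 (vertical axis) for 24 other chemokine ligands and 22 receptors, 1 point per gene. Colors give the week 5 call (unadjusted limma p under 0.05 and at least 2-fold), squares are genes called at week 4 and named points are called in at least 1 week. Ccl22, at 4.81, is the highest ligand at week 5, and Cxcr2, at 4.15, is the highest receptor.

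A list of 23 cytokines, receptors and NF-kB pathway genes was also examined. They are called inducers below as a working name, and not all of them act upstream of the ligands. At week 5, 21 were tested, 18 rose, all 18 also after adjustment, and none fell at an unadjusted p under 0.05 by limma, with a median log2 difference of 1.80. Over all genes, 9.82% were called up at week 5, and 7.91% after adjustment. Tnf, Il1a, Il17a, Il17f, Csf2 and Csf3 had normal means under 0.5 FPKM and passed the filter only through PBOO. In practice these could be counted only as rises. Il1a, a cytokine released by damaged epithelium, was 0, 0.156 and 0.123 FPKM in normal bladders and 33.7 and 30.9 FPKM in PBOO, and rose by 7.50 (SE 0.46, limma adjusted p = 0.000459). Il17a, the T cell cytokine that induces Cxcl1 and Ccl20, was listed at 0 in all normal samples and was 1.19 and 6.74 FPKM in PBOO (limma adjusted p = 0.00937). Csf2 and Csf3, growth factors of myeloid cells and neutrophils, were 1.16 and 4.05 FPKM and 1.49 and 9.73 FPKM in PBOO, against 0 in all normal samples for Csf2 and at most 0.148 FPKM for Csf3 (limma adjusted p = 0.00731 and 0.0152). Il1b rose by 3.92 (SE 0.85, limma adjusted p = 0.0214). At week 4, 14 were tested, none rose at an unadjusted p under 0.05 by limma and 2 were called down, beside 2.45% of all genes tested that week. Of these 2, Zfp36, whose product destabilizes cytokine mRNAs, held after adjustment (limma adjusted p = 0.0483). The 2 called genes were 4 without PBOO replicate 1 and 1 without normal replicate 2 or 3 or PBOO replicate 2 or 3.

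Leukocyte markers and tissue markers moved with these results, and their part in the differences was not tested. In bulk tissue, fewer cells of a type and less RNA per cell cannot be told apart. Over all genes, 9.82% were called up and 12.6% down at week 5, and 7.91% and 11.4% after adjustment. Of 48 leukocyte markers, 31 were tested at week 5, 17 rose, none fell at an unadjusted p under 0.05 by limma, and 11 rises held after adjustment. Without PBOO replicate 2, 7 were called. The 13 neutrophil markers summed to 1.84 to 5.35 FPKM in normal bladders, and to 19.0 FPKM in PBOO replicate 1 and 493 FPKM in replicate 2. The neutrophil-attracting ligands summed to 34.7 and 67.5 FPKM in the same samples, so the ligand sum differed far less between the PBOO samples than the marker sum did. S100a9, a calcium-binding protein abundant in neutrophils, was 8.87 and 287 FPKM in PBOO (rise of 5.64, SE 1.42, limma adjusted p = 0.0338), and Mmp9, a neutrophil protease, was 1.83 and 36.7 FPKM (rise of 6.30, SE 1.22, limma adjusted p = 0.0149). S100a8, the partner of S100a9, was 2.74 and 145 FPKM, and Mmp8, neutrophil collagenase, was 0.263 and 9.25 FPKM, with limma adjusted p = 0.114 and 0.0771. S100a8 was 2.15 and not called without PBOO replicate 2, and also lost its call without normal replicate 2 or 3, and Mmp8 lost it without any one of the 3 normal replicates. The granule and receptor markers Ngp, Camp, Mpo, Fpr1 and Fpr2 were below the filter. Of the leukocyte markers called at week 5, Csf3r, Cxcr2, Mmp8, Mmp9, Trem1, Cd3d and Zap70 passed the filter only through PBOO.

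The 12 macrophage markers summed to 67.5 to 170 FPKM in normal bladders and to 318 and 966 FPKM in PBOO at week 5. Cd68 (rise of 3.22, SE 0.42), Cd14 (2.97, SE 0.37) and Lyz2 (2.92, SE 0.78) had limma adjusted p = 0.00444, 0.00384 and 0.0399, and Itgam (2.13, SE 0.63) had 0.0523. These were the 4 of the 12 markers with both PBOO samples above all normal samples, beside 35.3% of all genes tested at week 5. The groups overlapped for the other 8, with Cd163 at -0.39 and Mrc1 at -0.54. The 10 T cell markers summed to 14.4 to 23.3 FPKM in normal bladders and to 25.8 and 92.3 FPKM in PBOO. Cd3d rose by 3.09 (SE 0.69), Cd3e by 3.01 (SE 0.77), Zap70 by 2.41 (SE 0.57) and Cd5 by 2.23 (SE 0.62), with limma adjusted p from 0.0236 to 0.0446, and Lck by 2.05 (SE 0.63) with 0.0595. The groups overlapped for Cd4 (0.53), Cd8a (0.38) and Cd8b (1.80), and Cd8a in PBOO replicate 1, at 0.604 FPKM, was below every normal sample. Without PBOO replicate 2, Itgam (1.34), Cd3e (2.13), Cd5 (1.41) and Lck (1.02) were no longer called, and Lck also lost its call without normal replicate 3. Cxcl10 and Ccl17 were higher in PBOO replicate 1, which had the lower sum of T cell markers. Ccl20, at 1.94 and 3.30 FPKM, was higher in replicate 2, as were the other ligands Cxcl9 and Cxcl11. A link between these ligands and T cells was not tested. B cell markers summed to at most 4.59 FPKM and mast cell markers to at most 1.82 FPKM in any week 5 sample. At week 4, 35 leukocyte markers were tested, and 3 rose, all of them mast cell proteases, Tpsab1, Cma1 and Tpsb2, and 1 fell, the B cell gene Fcrla, none after adjustment. Without normal replicate 1, the total was 7 and Cma1 and Tpsb2 were not called, and without PBOO replicate 1 it was 2.

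Muscle and fibroblast markers were much lower in the week 5 PBOO samples, while the urothelial markers moved in both directions. The 8 smooth muscle markers, Myh11 and Acta2 among them, summed to 24767 to 29124 FPKM in normal bladders and to 1860 and 994 FPKM in PBOO, and 8 of 8 fell after adjustment by limma. The 6 fibroblast markers summed to 1458 to 1807 FPKM and to 113 and 165 FPKM, and 6 of 6 fell, 5 after adjustment. The medians of these lists were -4.34 and -3.54, beside -1.19 for Cxcl12 and -2.29 for Cxcl14, so both stromal chemokines were lower by less than the typical muscle or fibroblast marker. The 11 urothelial markers summed to 7822 to 10273 FPKM in normal bladders and 9658 and 10826 FPKM in PBOO. Of these 11, 2 rose (Krt5 and Krt19, both after adjustment) and 5 fell (Krt20, Upk3b, Upk2, Krt18 and Upk1a, 4 of them after adjustment by limma), with a median log2 difference of -0.76. Over all genes, 9.82% were called up and 12.6% down at week 5. Upk1a lost its call without normal replicate 1, normal replicate 3 or PBOO replicate 2. At week 4 the smooth muscle markers went the other way, with sums of 25492 to 27555 FPKM in normal and 50905 to 82146 FPKM in PBOO bladders. The urothelial markers summed to 6629 to 8408 FPKM in normal and to 4029 to 5009 FPKM in PBOO bladders at week 4. Of the 9 tested, 7 had all PBOO samples below all normal samples, beside 34.9% of all genes tested that week. Of these 9, 1 was called down, Krt20, beside 2.45% of all genes tested that week, and none passed after adjustment by limma. The endothelial markers summed to 30.2 to 64.7 FPKM in normal and to 60.4 and 84.6 FPKM in PBOO bladders at week 5.

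**Figure D5:**
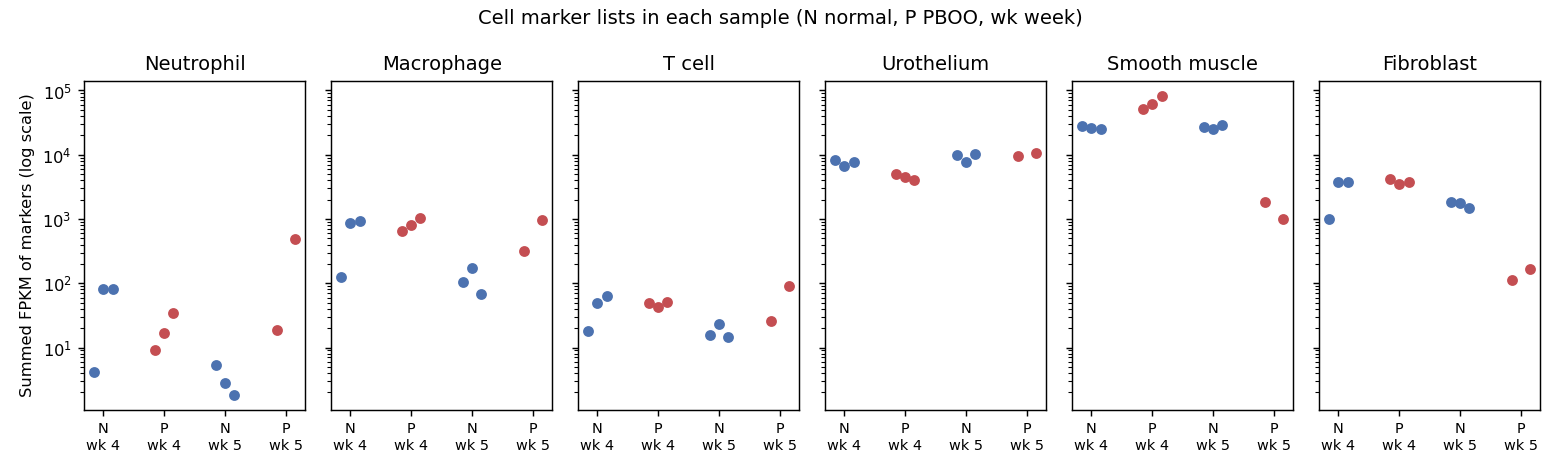
Summed FPKM of 6 cell marker lists in each sample, on a log axis, with normal samples in blue (N) and PBOO samples in red (P). Neutrophil markers reach 493 FPKM in 1 week 5 PBOO sample and 19.0 FPKM in the other, and smooth muscle markers drop to 994 and 1860 FPKM in these samples.

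Finally, the genes whose pattern was most like that of each class were listed, from 9965 genes whose mean reached 1 FPKM in each week. Likeness was the root mean square difference, over the 11 samples, of log2(FPKM + 0.1) centred on the normal mean of the week, and it is a description. The neutrophil-attracting mean was most like Gpx2 (0.72), Birc3 (0.73), Il20rb (0.74), Chi3l1 (0.75) and Aldh1a3 (0.75). Gpx2, an epithelial glutathione peroxidase, had week 5 means of 3.62 FPKM in normal and 85.0 FPKM in PBOO bladders, and Birc3, an inhibitor of apoptosis that is a known NF-kB target, had 1.16 and 25.6 FPKM. The lymphocyte-attracting mean was most like Ceacam1 (0.32), an adhesion molecule of epithelium and leukocytes, followed by Aldh1a3 (0.35), Il20rb (0.43), Birc3 (0.46) and Gpx2 (0.50). The nearest genes of both classes were thus largely the same, with 4 genes in both lists. The stromal mean was most like Ccdc8 (0.16), Creb1 (0.19), Plpp7 (0.19), Agpat4 (0.19) and Dnajc27 (0.21), none of them a marker in the lists above.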

How the data were processed

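RNA-seq was performed by the authors on 11 bladder tissue samples, and according to their methods reads were trimmed with SeqPrep and Sickle, mapped with HISAT2, assembled with StringTie and expressed as FPKM with featureCounts, and differential expression was tested with DESeq2. The FPKM values of the deposited table were used as they stand, with no further scaling. The submitters' processing notes name the mouse build mm10 for these rat samples, while the table lists rat symbols (36 starting with RT1 and 0 with H2), so the build behind the values is uncertain, and the strand of counting is not given in the sources used here. Groups, weeks and replicates were taken from the labels.

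The count-based test of the methods could not be applied to FPKM. Instead, log2(FPKM + 0.1) was fitted with limma 3.58.1 in R 4.3.3 (eBayes with a trend), separately for each week, for every gene whose mean was 0.5 FPKM or more, and the difference between weeks was fitted over all 11 samples. The steps were tested on simulated data. The members and the lists were chosen with earlier results of these data known. All 10 members and 8 cognate receptors were named. From each other list, week and direction, up to 5 called genes were named, those with the largest log2 differences among genes whose mean reached 1 FPKM and whose groups do not overlap. Of the other genes named, Cxcl9, Pf4, Ccl11 and Cxcl16 at week 4, Cd163, Mrc1 and the neutrophil markers below the filter were added after their values were seen. Around the group means, same-numbered samples deviated with correlations of 0.154, -0.024 and 0.232 at week 4 and of -0.001 and 0.124 at week 5, so the replicate numbers were not taken as pairs. Cxcl5, Ccl1, Ccl26, Ccl28 and Ccr2 are not analysed here. Python 3.11.15 was used with numpy 2.4.6 and pandas 2.3.3 for the tables, and matplotlib 3.10.9 for the plots.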

Additional observations from a re-analysis of the deposited data

Results flagged for a closer look

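The difference between PBOO and normal bladders turned around between weeks for Cxcl10, by 4.99 on the log2(FPKM + 0.1) scale (week 5 minus week 4), with every PBOO sample below the normal samples at week 4 and above them at week 5, and this difference was not tested because the gene was chosen on these contrasts. Among the other ligands, the difference between PBOO and normal bladders was larger at week 5 for Ccl22 by 5.24 (limma interaction, adjusted p = 0.000541), Ppbp by 5.17 (adjusted p = 0.00379), Cxcl13 by 4.23 (adjusted p = 0.024), Cxcl11 by 4.41 (adjusted p = 0.0246) and Cx3cl1 by 3.66 (adjusted p = 0.00554). Among the receptors, it was larger at week 5 for Cxcr2 by 4.85 (limma interaction, adjusted p = 0.00423), Cxcr6 by 3.37 (adjusted p = 0.0253), Ccr7 by 3.87 (adjusted p = 0.0075) and Cxcr4 by 2.03 (adjusted p = 0.0195). For Ackr2 the interaction was -3.13 (limma adjusted p = 0.0164), higher in PBOO at week 4 and lower at week 5. Over all genes, 40.0% differed between weeks at this threshold. The ligands and receptors listed here were named for their differences in these same samples, so their interaction p-values are only a description. Ccl22, Ppbp, Cxcl11 and Cxcr2 passed the filter over all samples only through the week 5 PBOO samples. A change between weeks cannot be told apart from a difference in how the columns of each week were made.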

How the results depend on the processing

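The medians of the 3 classes kept their side of 0 at week 5 in every alternative run, and none of the 10 members changed sign at week 5 with a constant of 1, no filter, another scaling or the block. With a constant of 1 the week 5 medians were 3.38 for the neutrophil-attracting and 3.09 for the lymphocyte-attracting genes, since the constant sets the size of differences from values near 0. Under median-ratio scaling the week 4 stromal median was -0.12. Called genes at week 4 were 0 other ligands under quantile normalization, 1 receptor with a constant of 1, median-ratio scaling or quantile normalization, and 1 inducer under either scaling. At week 5, 5 receptors were called with a constant of 1. The split of all called genes at week 4 was 278 up and 277 down (50.1% up), and 412 and 117 (77.9% up) under median-ratio scaling or 366 and 148 (71.2% up) under quantile normalization. At week 5, 43.8% of called genes were up, and 38.4% under median-ratio scaling.

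Leaving out 1 sample at a time, where a lone sample at week 5 is assumed to vary like the others, gave week 4 medians of -1.06 to -0.33 (neutrophil-attracting), -0.73 to 0.65 (lymphocyte-attracting, above 0 without normal replicate 3 or PBOO replicate 2) and -0.52 to -0.25 (stromal), and week 5 medians of 5.01 to 6.23, 4.35 to 5.09 and -2.04 to -1.43. Called genes were 0 to 4 at week 4 and 8 to 14 at week 5 for other ligands, 1 to 3 and 5 to 10 for receptors, 1 to 4 and 13 to 18 for inducers, and 2 to 7 and 7 to 25 for leukocyte markers, and 6 to 19 ligands and receptors differed between weeks. With the replicate number as a block, the calls were 1 and 13 for ligands, 2 and 7 for receptors, 2 and 16 for inducers and 5 and 21 for leukocyte markers, and 14 genes differed between weeks. The numbers share no more than a label, as the correlations show. Of the alternatives for single members 12 moved beyond 1 SD and 128 did not, and for other named genes 22 lost a call, 3 gained one and 423 did neither. With no counts, the depth behind low values is unknown, so levels under about 0.1 FPKM cannot be ranked.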
